A study of Mus musculus with 4 samples.

Results

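The pluripotency genes *Pou5f1*, *Sox2*, *Nanog*, *Utf1*, *Pim2*, *Dppa4* and *Slc7a3* were followed through gastrulation in single-cell RNA-seq libraries of mouse embryos. They were chosen by name, and all 7 were listed among the 16639 genes of the MS-LS library, the 16341 genes of the OB-EB library and the 18640 genes of the EHF library. The study asked when and where heart progenitors arise in the primitive streak, and sampled 3 stages, each pooled into 1 library: mid-streak to late streak (MS-LS, E6+21h), no bud to early bud (OB-EB, E7+3h) and early head fold (EHF, E7+14h). Embryos of each group were TnEGP-CreERT2/+; R26Rtdtomato/R26Rtdtomato, with Cre made under the *T* locus. Tamoxifen was given at E6+5h to the MS-LS group, at E6+21h to the OB-EB group and at E7+7h to the EHF group, so that every group carried the Cre allele at *T* and had met the drug. Stage, library and time of tamoxifen thus cannot be told apart, and a difference between stages compares libraries. Each unique molecular identifier (UMI) stands for 1 captured transcript. The libraries held 3635, 3994 and 3494 cells, with a median of 4251, 2620.5 and 5584 UMIs per cell, and shared 12 to 18 barcodes pairwise.

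Pluripotency in the epiblast, the tissue that gives rise to the whole embryo proper, depends on a small circuit of transcription factors. *Pou5f1* (Oct4) and *Sox2* bind DNA side by side on composite sites, and *Nanog* acts with them to keep cells from differentiating. As gastrulation proceeds, epiblast cells enter the primitive streak to become mesoderm and endoderm, or stay behind and become ectoderm, and the circuit is switched off step by step. *Utf1* encodes a chromatin-associated factor, *Pim2* a serine/threonine kinase that promotes survival, *Dppa4* a nuclear protein of early embryonic cells, and *Slc7a3* a transporter of cationic amino acids.

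In GRCm38, *Pou5f1* lies at chr17:35506018-35510772, *Sox2* at chr3:34650405-34652461, *Nanog* at chr6:122707489-122714633, *Utf1* at chr7:139943789-139945112, *Pim2* at chrX:7878262-7883432, *Dppa4* at chr16:48283733-48294237 and *Slc7a3* at chrX:101079210-101086020, all protein-coding and all but *Slc7a3* on the plus strand. *Sox2* lies inside *Sox2ot* on the same strand, and that gene had 6 to 7 UMIs per library. *Pou5f1* overlaps *Gm19553* on the other strand.

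The RefSeq promoter windows of GRCm38.p6, which run from 250 bases before to 50 bases after a start site, covered 5 of the 7 genes with 7 windows. These were searched on both strands for ATGCAAA, the core of the octamer that POU factors bind, for CATTGT, the core of SOX sites, and for the SOX core, any base and then the first letters of the POU core in a row. ATGCAAA occurred in windows of *Sox2*, *Nanog* and *Pim2*, and in 4.63% of all 32851 windows. CATTGT occurred in windows of *Nanog* and *Pou5f1* and in 12.6% of all windows. The joined motif, which overlaps both others, occurred in *Nanog* and in 20 of all windows (0.0609%). The longer octamer ATGCAAAT was in the *Pim2* window and in 1.74% of all windows, and the GC box GGGCGG was in windows of *Pou5f1*, *Sox2*, *Utf1* and *Pim2* and in 35.7% of all windows. The windows of the 3 genes with the POU core are shown, since POU5F1 is the protein of a gene followed here. Each is given on the plus strand, at chr6:122707239-122707538, chrX:7878056-7878355 and chr3:34649745-34650044 in turn, with ATGCAAA and CATTGT on either strand in capitals. A match describes letters only.
Nanog: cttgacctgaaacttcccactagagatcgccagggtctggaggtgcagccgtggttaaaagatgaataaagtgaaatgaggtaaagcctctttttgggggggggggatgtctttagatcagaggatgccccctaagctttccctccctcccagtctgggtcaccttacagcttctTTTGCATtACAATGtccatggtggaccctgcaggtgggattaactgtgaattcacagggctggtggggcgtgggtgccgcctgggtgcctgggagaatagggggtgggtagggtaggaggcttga
Pim2: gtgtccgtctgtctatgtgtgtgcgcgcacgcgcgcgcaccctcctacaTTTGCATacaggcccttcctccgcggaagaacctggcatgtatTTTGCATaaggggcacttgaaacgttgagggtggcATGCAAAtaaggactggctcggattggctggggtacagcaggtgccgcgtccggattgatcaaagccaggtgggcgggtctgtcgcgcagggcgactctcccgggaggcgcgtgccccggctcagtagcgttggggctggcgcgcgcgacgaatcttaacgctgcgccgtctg
Sox2: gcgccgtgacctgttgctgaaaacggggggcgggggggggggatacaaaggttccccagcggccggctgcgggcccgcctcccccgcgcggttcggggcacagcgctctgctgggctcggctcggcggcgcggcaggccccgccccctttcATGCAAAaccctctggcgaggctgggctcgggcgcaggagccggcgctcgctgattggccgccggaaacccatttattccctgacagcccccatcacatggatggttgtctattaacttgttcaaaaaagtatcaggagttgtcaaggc

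Cells were grouped into classes by clustering each library without the 7 genes, and a class is called "-like" after the markers its clusters held. Many markers came from gene lists of the study, drawn from these libraries. A class holds its own markers high by the way it was named. The sums below thus describe the classes and do not check their names. The epiblast-like class had 960 MS-LS and 1276 OB-EB cells, and the primitive streak-like class 390 and 361 cells. The 12 epiblast markers summed to 2338 CPM (the UMIs of a gene over all UMIs of the class, scaled to 1000000) in MS-LS epiblast-like cells and 2151 CPM in OB-EB epiblast-like cells, none of the markers at 0. The 11 markers of Exe ectoderm (extraembryonic ectoderm, which forms part of the placenta) summed to 68.4 and 74.5 CPM there, and to 3662 and 3468 CPM in the Exe ectoderm-like classes. The streak markers summed to 1699 and 2671 CPM in streak-like cells and to 657 and 972 CPM in epiblast-like cells. In EHF the caudal epiblast-like class (187 cells) held its own 11 markers at 2912 CPM, the caudal neuroectoderm-like class (324 cells) held its 10 at 1216 CPM, and the rostral neuroectoderm-like class (166 cells) held 9 listed markers at 393 CPM. Markers of neuroectoderm and caudal epiblast thus ran low in the Exe ectoderm-like class of EHF, between 33.8 and 74.0 CPM. Unnamed clusters held 528, 294 and 414 cells. With 1 library a stage and no map from cells to embryos there are no replicates, so no test was made, and every interval below is an exact 95% interval that covers counting error only.

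*Pou5f1*, a central factor of the circuit, ran across the epiblast, the streak and their early descendants. In MS-LS it stood at 966 CPM (938 to 995) in epiblast-like, 818 (782 to 856) in primitive streak-like, 697 (588 to 821) in node-like and 377 (343 to 412) in nascent mesoderm-like cells. In OB-EB the same classes stood at 715 (688 to 742), 433 (400 to 467), 617 (504 to 749) and 243 CPM (222 to 265). In EHF it stood at 792 CPM (741 to 846) in caudal epiblast-like cells, 630 (596 to 666) in caudal neuroectoderm-like cells and 326 (296 to 359) in rostral neuroectoderm-like cells. Among named classes, epiblast-like or caudal epiblast-like cells held the highest level in each library, although in OB-EB their interval overlapped that of the node-like cells. Levels of 330 CPM (304 to 357) in caudal and presomitic mesoderm-like, 339 (296 to 386) in surface ectoderm-like and 280 (208 to 368) in notochord and node-like cells of EHF had overlapping intervals. Blood-like cells of EHF, which should lack the gene, held 15.9 CPM (9.97 to 24.1), and parietal endoderm-like cells 16.9 (3.49 to 49.5).

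*Sox2*, the partner of *Pou5f1* that is also used by neural and extraembryonic progenitors, had another order. In MS-LS its level was 112 CPM (100 to 124) in Exe ectoderm-like, 83.0 (74.9 to 91.8) in epiblast-like, 37.1 (29.7 to 45.8) in streak-like and 5.62 (2.26 to 11.6) in nascent mesoderm-like cells. In OB-EB these classes stood at 171 (145 to 200), 154 (142 to 167), 24.9 (17.5 to 34.3) and 5.16 CPM (2.57 to 9.23). In EHF the level was 156 CPM (136 to 179) in rostral neuroectoderm-like, 78.5 (66.7 to 91.8) in caudal neuroectoderm-like, 64.0 (55.8 to 72.9) in Exe ectoderm-like and 29.6 (20.4 to 41.6) in caudal epiblast-like cells. Exe ectoderm-like cells thus led in both earlier libraries, with an interval that overlapped that of the epiblast-like cells in OB-EB only, and rostral neuroectoderm-like cells led in EHF.

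*Nanog*, the third factor of the circuit, was sparse, with 343 UMIs in MS-LS, 138 in OB-EB and 108 in EHF. In MS-LS its level was 52.2 CPM (43.3 to 62.4) in streak-like, 48.8 (23.4 to 89.7) in node-like, 28.7 (23.998 to 34.1) in epiblast-like and 11.2 (6.15 to 18.9) in nascent mesoderm-like cells. In OB-EB it was 21.5 CPM (14.7 to 30.4) in streak-like and 19.6 (15.4 to 24.7) in epiblast-like cells, and 36.0 (13.2 to 78.3) in node-like cells, which rests on 6 UMIs. In EHF it was 19.0 CPM (13.4 to 26.1) in caudal and 18.8 (12.2 to 27.7) in rostral neuroectoderm-like cells, and 5.38 (1.97 to 11.7) in caudal epiblast-like cells. Every pair of neighbours in its order of classes had overlapping intervals, 31 of 31 pairs over the 3 libraries, against 17 of 31 for *Pou5f1*.

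*Utf1*, the chromatin-associated factor, was high in epiblast-like and in Exe ectoderm-like cells. Its level was 368 CPM (350 to 386) in MS-LS epiblast-like cells, 232 (217 to 248) in OB-EB epiblast-like cells, 63.2 (50.4 to 78.2) in EHF rostral and 35.5 (27.7 to 44.8) in EHF caudal neuroectoderm-like cells, and 13.5 (7.53 to 22.2) in EHF caudal epiblast-like cells. The Exe ectoderm-like classes stood at 296 (277 to 316), 252 (221 to 286) and 318 CPM (299 to 337) in the order of stages. The level in epiblast-like cells was thus lower in OB-EB than in MS-LS, while those of the Exe ectoderm-like classes lay within 252 to 318 CPM.

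*Pim2*, the kinase, and *Slc7a3*, the transporter, followed the epiblast-like classes. *Pim2* stood at 410 CPM (392 to 429) in MS-LS and 332 (314 to 351) in OB-EB epiblast-like cells, and in EHF at 289 (261 to 319) in rostral neuroectoderm-like, 184 (166 to 204) in caudal neuroectoderm-like and 46.6 (34.8 to 61.2) in caudal epiblast-like cells. *Slc7a3* stood at 136 CPM (126 to 147), 86.9 (77.7 to 96.9), 62.4 (49.7 to 77.4), 40.5 (32.2 to 50.3) and 7.18 (3.10 to 14.1) in the same 5 classes. Both genes were thus lowest of these classes in the EHF caudal epiblast-like cells, where *Pou5f1* was highest of the EHF classes.

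*Dppa4* was an Exe ectoderm gene in these libraries. It stood at 88.6 CPM (78.3 to 99.7), 76.9 (60.2 to 96.9) and 49.9 (42.8 to 57.9) in the Exe ectoderm-like classes of MS-LS, OB-EB and EHF. In epiblast-like cells it stood at 2.19 CPM (1.05 to 4.03) in MS-LS, from 10 UMIs, and at 0.807 (0.166 to 2.36) in OB-EB, from 3 UMIs. It was at 0 UMIs in OB-EB streak-like and EHF caudal neuroectoderm-like cells, with upper interval bounds of 2.48 and 1.84 CPM. Exe ectoderm-like cells held 88.9% of its UMIs in MS-LS, 81.8% in OB-EB and 88.3% in EHF.

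**Figure D1:**
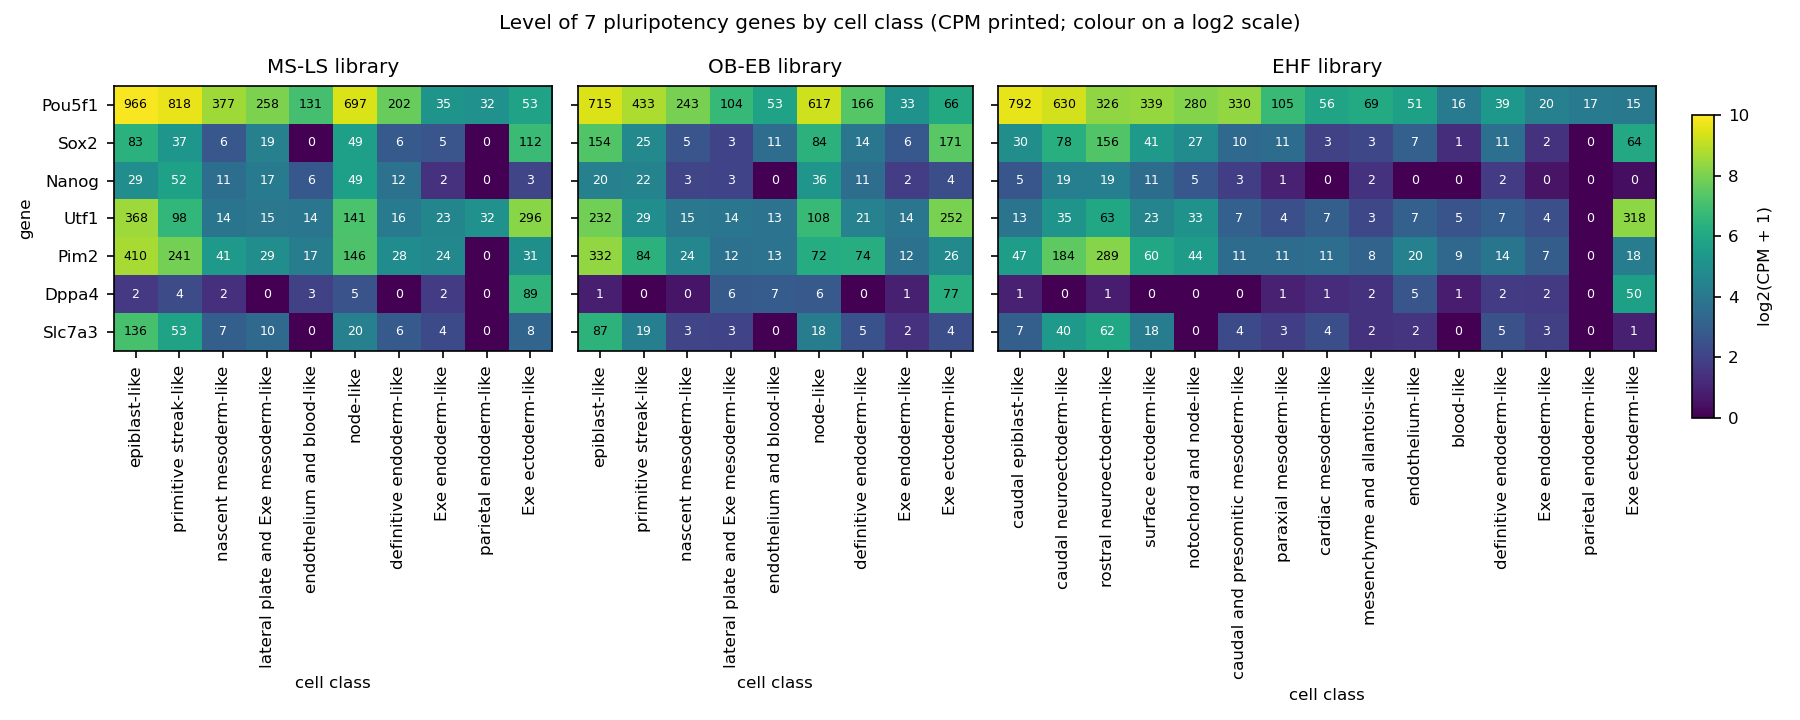
Level of each of the 7 genes (rows) in every named class (columns) of the 3 libraries, as CPM printed in each cell and as colour on a log2(CPM + 1) scale. *Pou5f1* is present across embryonic classes, *Dppa4* stands out in Exe ectoderm-like cells only, at 88.6, 76.9 and 49.9 CPM, and *Utf1* and *Sox2* are high in both epiblast-like and Exe ectoderm-like cells.

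The share of cells in which a gene was seen followed the same pattern. Cells were thinned to 1000 UMIs each, so that shares could be compared across depths. A *Pou5f1* UMI was then found in 61.7% of MS-LS epiblast-like cells and 50.9% of OB-EB epiblast-like cells (97.0% and 82.2% unthinned, median depths of 4161.5 and 2572.5 UMIs). It was found in 52.4% of EHF caudal epiblast-like cells (98.4% unthinned, median 5565 UMIs) and in 1.75% of EHF blood-like cells (6.29% unthinned, median 4905 UMIs). A *Nanog* UMI was found in 3.54% of MS-LS epiblast-like and 3.59% of MS-LS streak-like cells after thinning (12.4% and 26.2% unthinned), and in 0% of EHF blood-like cells (0 of 286 cells, unthinned too, with an upper bound of 1.28%). The thinned shares of *Nanog* thus lay together where its CPM differed, and they rest on 34 and 14 cells.

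The first comparison asked how the epiblast differed between MS-LS and OB-EB. *Sox2* was 1.86-fold higher in OB-EB than in MS-LS epiblast-like cells (log2 ratio 0.89, 0.70 to 1.08), and the other 5 genes with enough counts were lower. *Utf1* was 1.58-fold lower (log2 −0.66, −0.78 to −0.54), *Slc7a3* 1.57-fold lower (−0.65, −0.85 to −0.45) and *Nanog* 1.46-fold lower (−0.55, −0.98 to −0.12). *Pou5f1* was 1.35-fold lower (−0.43, −0.50 to −0.36) and *Pim2* 1.24-fold lower (−0.30, −0.41 to −0.20). These differences lay within 2-fold. A gene was counted when it differed at least 2-fold and had at least 100 UMIs over both classes, and 0 of the 6 genes that met the count did so, while 6.99% of the 5865 genes with that many UMIs did. *Dppa4*, with 13 UMIs, was below the count. The streak markers summed to 657 CPM in MS-LS and 972 CPM in OB-EB epiblast-like cells, and *T* stood at 7.45 and 29.6 CPM, and their part in the result was not tested. *Sox2* passed 2-fold, with a log2 ratio over 1, where the 7 genes and their lists were allowed to shape the clusters, in the largest cluster of each class, and under a stricter marker rule.

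Related genes were taken as 3 lists, of which genes with 30 UMIs over both classes were read. A gene near 0 in 1 group passes that filter only through the other group, where it is then high, so that few naive genes could pass without a difference and no count of them is given where this was so. Single genes of the other lists passed in this way too, so their counts were partly fixed by the filter. Among 17 genes of the formative and primed epiblast, the state that follows naive pluripotency, 2 were at least 2-fold higher and 3 lower in OB-EB, with a median log2 ratio of −0.13. Over 9082 genes with that many UMIs, 6.09% were higher and 2.82% lower. *Pou3f1*, a POU factor of the epiblast and later of neural tissue, stood at 290 CPM in OB-EB against 116 in MS-LS, and *Sox4*, another SOX factor, at 213 against 98.4. *Nodal*, the ligand that patterns the epiblast, stood at 2.69 against 10.7 CPM, its co-receptor *Tdgf1* at 40.3 against 102, and the repressor *Foxd3* at 9.68 against 26.3. Of 15 naive pluripotency genes only *Dppa5a* had 30 UMIs, at 12.4 CPM in OB-EB and 60.9 in MS-LS. Of 17 partners of the pluripotency network 14 had 30 UMIs, none of them 2-fold apart, with a median of 0.27.

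The next comparison set EHF caudal epiblast-like cells against OB-EB epiblast-like cells. These classes are not the same tissue, since the caudal epiblast is the region by the streak that remains at the head fold stage. *Pou5f1* was 792 CPM in the first and 715 in the second, a log2 ratio of 0.15 (0.04 to 0.26) that turned to −0.20 under TMM scaling, which moved the ratios by 0.35. *Utf1*, *Slc7a3*, *Pim2* and *Sox2* were at least 5-fold lower in EHF. *Utf1* was 17.3-fold lower (log2 −4.11, −4.95 to −3.38), *Slc7a3* 12.1-fold lower (−3.60, −4.82 to −2.60), *Pim2* 7.12-fold lower (−2.83, −3.26 to −2.43) and *Sox2* 5.21-fold lower (−2.38, −2.93 to −1.87). Of 5 members with 100 UMIs, 4 were at least 2-fold lower, against 21.5% of 4626 genes in either direction. These 4 reached 100 UMIs through the OB-EB class alone, so the count was partly fixed by the filter. *Nanog* was 3.65-fold lower (−1.87, −3.36 to −0.68) from 79 UMIs, below the count, and *Dppa4* had 4 UMIs in all. *T*, the T-box factor of the streak, stood at 645 CPM in the first class and 29.6 CPM in the second. The 11 Exe ectoderm markers summed to 343 CPM in the first, 2 of them at 0, and to 74.5 CPM in the second, and their part in the result was not tested.

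In the same comparison 6 of 13 formative and primed genes were at least 2-fold lower and 1 higher (median −0.50), against 10.4% lower and 16.3% higher of 8046 genes with a median of 0.24. *Otx2*, a factor of the anterior epiblast, stood at 0.897 against 67.8 CPM, *Pou3f1* at 4.48 against 290, the growth factor *Fgf5* at 3.59 against 112 and *Tdgf1* at 5.38 against 40.3. These genes had 1, 5, 4 and 6 UMIs in the EHF class and passed the filter through the OB-EB class alone. *Etv4*, a target of FGF signalling, stood at 99.6 against 9.68 CPM. Of the partners 2 of 14 were higher and 6 lower (median −0.86). *Lin28a*, which blocks the maturation of let-7 microRNAs, was 358 against 158 CPM and *Nr6a1*, a nuclear receptor that represses *Pou5f1*, 213 against 56.2, whereas *Tet1* was 13.5 against 53.3 and *Tcf7l1* 7.18 against 31.7. Of the naive list, *Klf5* (41.3 against 1.08 CPM) and *Fgf4* (45.7 against 1.61 CPM) were higher and *Dppa5a* (4.48 against 12.4) was lower. *Fgf4* is also a signal of the streak and *Klf5* is used in several epithelia.

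Within EHF, the neuroectoderm was split by its markers into a caudal and a rostral class, and *Pou5f1* and *Sox2* differed between them in opposite directions. *Pou5f1* was 1.93-fold higher in the caudal class (630 against 326 CPM, log2 0.95, 0.79 to 1.11). *Sox2* was 1.99-fold lower there (78.5 against 156 CPM, log2 −0.99, −1.30 to −0.69). *Utf1* was 1.78-fold lower (−0.83, −1.31 to −0.36), *Pim2* 1.57-fold lower (−0.65, −0.86 to −0.44) and *Slc7a3* 1.54-fold lower (−0.62, −1.08 to −0.16), while *Nanog* stood at 19.0 and 18.8 CPM. Of 5 members with 100 UMIs, 0 reached 2-fold, against 1.54% of 3958 genes, though 2 did at clustering resolutions of 2 and 8. *Nanog* had 63 UMIs and *Dppa4* had 1. The rostral class was a single cluster, and the 2 clusters of the caudal class ranged from 490 to 737 CPM for *Pou5f1* and from 65.97 to 94.9 CPM for *Sox2*.

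Of 12 formative and primed genes, 4 were at least 2-fold higher in the caudal class and 2 lower (median 0.27), against 1.77% higher and 1.502% lower of 7390 genes. *Otx2* stood at 21.5 CPM in the caudal class and 186 in the rostral class, and *Pou3f1* at 39.5 and 104. *Etv4* (34.5 and 0.752 CPM), *Etv5* (33.5 and 4.51), *Fgf8* (21.5 and 4.51) and *Lef1* (54.0 and 24.1), genes of FGF and Wnt signalling, were higher in the caudal class. Of 14 partners 1 was lower, *Tcf7l1* (24.5 and 76.7 CPM), with a median of −0.03, and no naive gene had 30 UMIs.

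The unnamed EHF cluster between caudal epiblast and caudal neuroectoderm (156 cells, too close to both to be named) fell in with the caudal end. It held *Pou5f1* at 857 CPM (795 to 924), *Sox2* at 62.1 (46.1 to 81.9), *Nanog* at 18.6 (10.4 to 30.7) and *Utf1* at 28.6 (18.1 to 42.9).

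**Figure D2:**
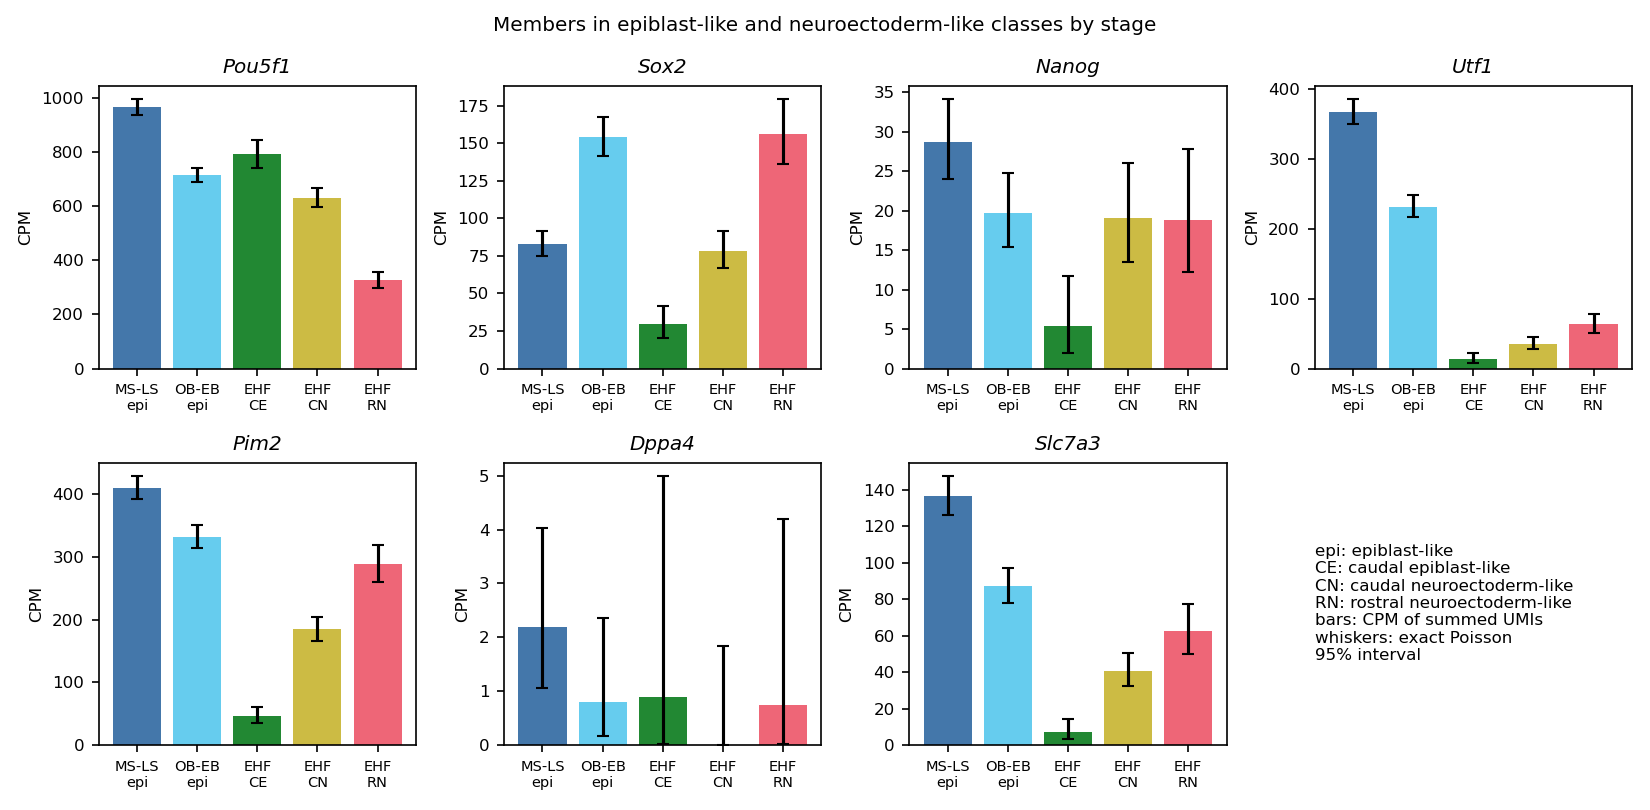
CPM of each gene (bars) with its exact 95% Poisson interval (whiskers) in the epiblast-like classes of MS-LS and OB-EB and the caudal epiblast-like, caudal neuroectoderm-like and rostral neuroectoderm-like classes of EHF. *Pou5f1* is 792, 630 and 326 CPM along the EHF classes from caudal epiblast to rostral neuroectoderm, and *Sox2* is 29.6, 78.5 and 156 CPM.

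Entry into the streak was compared within each library, which sets the library aside. Stage is not fully set aside, since each library pools embryos over a range of stages. In MS-LS streak-like cells *Utf1* was 3.76-fold lower than in epiblast-like cells (log2 −1.91, −2.12 to −1.71), *Slc7a3* 2.57-fold lower (−1.36, −1.65 to −1.08) and *Sox2* 2.24-fold lower (−1.16, −1.52 to −0.82). *Pim2* was 1.70-fold lower (−0.77, −0.91 to −0.63) and *Pou5f1* 1.18-fold lower (−0.24, −0.32 to −0.16). *Nanog* alone of the genes with 100 UMIs was higher, 1.82-fold (0.86, 0.49 to 1.23). Of 6 members with 100 UMIs, 3 were at least 2-fold lower, against 2.2% of 5308 genes in either direction. Of these, *Sox2* reached 100 UMIs through the epiblast-like cells alone. *Dppa4* had 19 UMIs.

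In OB-EB streak-like cells the same genes were lower by larger folds. *Utf1* was 8.03-fold lower (log2 −3.01, −3.48 to −2.56), *Sox2* 6.20-fold lower (−2.63, −3.15 to −2.15), *Slc7a3* 4.62-fold lower (−2.21, −2.82 to −1.65) and *Pim2* 3.95-fold lower (−1.98, −2.26 to −1.72). *Pou5f1* was 1.65-fold lower (−0.72, −0.85 to −0.60), and *Nanog* stood at 21.5 CPM in streak-like and 19.6 CPM in epiblast-like cells (0.13, −0.52 to 0.75). Of 6 members with 100 UMIs, 4 were at least 2-fold lower, against 3.82% of 4738 genes. Of these, *Utf1*, *Sox2* and *Slc7a3* reached 100 UMIs through the epiblast-like cells alone, so the count was partly fixed by the filter. The log2 intervals of *Pou5f1*, *Sox2*, *Utf1* and *Pim2* did not overlap those of MS-LS, and those of *Nanog* and *Slc7a3* did. Whether the gap between the stages exceeds the spread between embryos was not tested.

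Of 17 formative and primed genes in MS-LS streak-like cells, 3 were at least 2-fold higher and 3 lower (median 0.15), against 2.79% higher and 2.06% lower of 8561 genes. *Fgf8* stood at 217 CPM against 79.1 in epiblast-like cells and *Tdgf1* at 270 against 102, while *Sox3*, the close relative of *Sox2*, stood at 6.47 against 22.1, *Pou3f1* at 46.6 against 116 and *Foxd3* at 10.8 against 26.3. In OB-EB 2 of 15 were higher and 5 lower (median −0.18), against 4.44% higher and 3.84% lower of 8069 genes. There *Pou3f1* stood at 41.0 against 290 CPM, *Sox3* at 3.36 against 20.4 and the DNA methyltransferase *Dnmt3b* at 572 against 1227. Of 14 partners 0 moved 2-fold in MS-LS and 2 were lower in OB-EB, *L1td1* (17.5 against 50.8 CPM) and *Phc1* (28.9 against 71.0). Of the naive list, *Fgf4* (17.5 against 1.61 CPM) and *Tbx3* (14.1 against 2.96) were higher in OB-EB streak-like cells.

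In the nascent mesoderm-like cells of both libraries, *Pou5f1* was lower by a smaller fold than *Sox2*, *Utf1*, *Pim2* and *Slc7a3*. In MS-LS nascent mesoderm-like cells (200 cells), *Pou5f1* was 2.56-fold lower than in epiblast-like cells (log2 −1.36, −1.50 to −1.22) and *Nanog* 2.55-fold lower (−1.35, −2.26 to −0.55). *Pim2* was 10.0-fold lower (−3.32, −3.75 to −2.92), *Sox2* 14.8-fold (−3.88, −5.21 to −2.83), *Slc7a3* 18.9-fold (−4.24, −5.37 to −3.30) and *Utf1* 26.9-fold (−4.75, −5.53 to −4.07). All 6 members with 100 UMIs were at least 2-fold lower, against 7.76% of 4868 genes in either direction, and *Dppa4* had 12 UMIs. All but *Pou5f1* reached 100 UMIs through the epiblast-like cells alone, so this count was partly fixed by the filter. *Pou5f1* and *Nanog* were thus the genes with the smallest folds.

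In OB-EB nascent mesoderm-like cells (800 cells) *Pou5f1* was 2.94-fold lower (log2 −1.56, −1.70 to −1.42), *Pim2* 13.9-fold, *Utf1* 15.5-fold, *Slc7a3* 26.5-fold and *Sox2* 29.9-fold lower. All 5 members with 100 UMIs were at least 2-fold lower, against 7.05% of 4925 genes. Again all but *Pou5f1* reached 100 UMIs through the epiblast-like cells alone. *Nanog* was 5.98-fold lower from 80 UMIs (−2.58, −3.95 to −1.47), and *Dppa4* had 4 UMIs. *Pou5f1* at 243 CPM stayed far above the 33.0 CPM (23.6 to 45.0) of Exe endoderm-like cells of the same library, whereas *Utf1* at 15.001 CPM (10.3 to 21.2) and *Pim2* at 23.9 CPM (17.8 to 31.4) lay near the 14.0 (8.18 to 22.5) and 12.4 CPM (6.93 to 20.4) of those cells.

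Of 15 formative and primed genes in MS-LS nascent mesoderm-like cells, 3 were at least 2-fold higher and 7 lower (median −0.58), against 6.26% higher and 7.36% lower of 8149 genes. In OB-EB 2 of 15 were higher and 9 lower (median −1.11), against 3.86% and 7.87% of 8289 genes. *Tdgf1* (166 against 40.3 CPM in OB-EB) and *Lef1* (221 against 79.1) were higher, and *Pou3f1* (18.8 against 290), *Sox3* (0.938 against 20.4) and *Dnmt3b* (183 against 1227) were lower. Of 14 partners 2 were lower in MS-LS and 5 in OB-EB, with *Jarid2* at 46.9 against 107 CPM and *Tet1* at 24.4 against 53.3 in OB-EB, and medians of −0.31 and −0.80. Of the naive list, *Tbx3* was higher in both libraries (28.1 against 1.97 CPM in MS-LS). *Klf4* stood at 7.97 against 3.77 CPM in OB-EB, with a log2 interval that held 0 (1.08, −0.03 to 2.21).

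**Figure D3:**
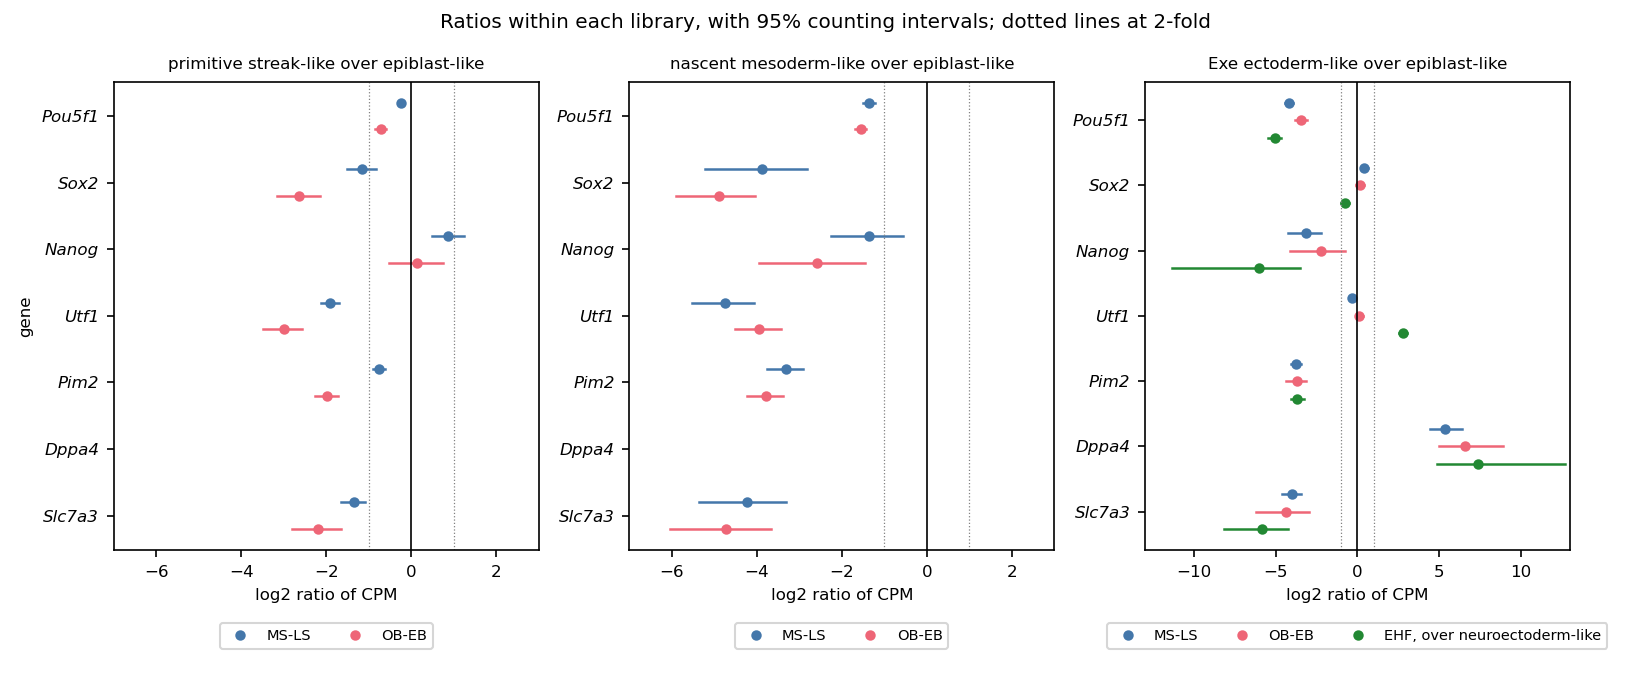
Log2 ratio of CPM (points) with exact 95% intervals (lines) for primitive streak-like, nascent mesoderm-like and Exe ectoderm-like cells over epiblast-like cells of the same library, or over neuroectoderm-like cells in EHF, with dotted lines at 2-fold and genes below 30 UMIs left out. *Nanog* lies right of 0 in the MS-LS streak panel, at 0.86, where *Utf1* lies at −1.91, and *Dppa4* lies at 5.34, 6.57 and 7.38 in the Exe ectoderm panel.

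The extraembryonic ectoderm was compared with the epiblast because *Sox2* and *Utf1* are known there too. In MS-LS, *Dppa4* was 40.4-fold higher in Exe ectoderm-like cells (log2 5.34, 4.44 to 6.41). *Sox2* was 1.35-fold higher (0.43, 0.22 to 0.65) and *Utf1* 1.24-fold lower (−0.31, −0.43 to −0.19). *Pou5f1* was 18.2-fold lower (−4.19, −4.42 to −3.96), *Slc7a3* 16.1-fold, *Pim2* 13.4-fold and *Nanog* 8.82-fold lower. Of the 7 members, all with 100 UMIs, 1 was at least 2-fold higher and 4 were lower, against 16.9% of 5740 genes in either direction. *Dppa4* reached 100 UMIs through the Exe ectoderm-like cells alone, with 272 UMIs there and 10 in epiblast-like cells. *Nanog*, *Slc7a3* and *Pim2*, with 10, 26 and 94 UMIs in Exe ectoderm-like cells, reached 100 through the epiblast-like cells alone. The counts were thus partly fixed by the filter. The 7 genes thus fell apart into *Dppa4*, *Sox2* and *Utf1*, which Exe ectoderm-like cells held, and 4 genes that they held at low levels.

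A cluster of 23 cells within the MS-LS Exe ectoderm-like class differed from the others. It held *Pou5f1* at 344 CPM, *Pim2* at 154 and *Slc7a3* at 59.7, where the other 3 clusters held 21.7 to 38.5, 8.86 to 27.3 and 1.77 to 6.30 CPM. Its cells had a median of 8303 UMIs, against 4251 in the library, and doublets were kept. Another of the clusters, of 170 cells with a median of 7572 UMIs, held *Pou5f1* at 38.5 CPM. Without the cluster of 23 cells, a choice made after seeing the data, *Pou5f1* was lower by a log2 ratio of −4.88 (−5.19 to −4.59) and *Slc7a3* by −4.80 (−5.68 to −4.05). The same number of members, 5, was then at least 2-fold apart.

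In OB-EB the split was the same. *Sox2* (171 against 154 CPM, log2 0.15, −0.11 to 0.40) and *Utf1* (252 against 232 CPM, 0.12, −0.09 to 0.33) had intervals that held 0. *Pou5f1* was 10.8-fold, *Pim2* 12.9-fold and *Slc7a3* 20.3-fold lower. Of 5 members with 100 UMIs, 3 were at least 2-fold lower, against 14.6% of 4413 genes. These 3 reached 100 UMIs through the epiblast-like cells alone. *Dppa4* was 95.3-fold higher from 75 UMIs (6.57, 4.97 to 8.89) and *Nanog* 4.59-fold lower from 77 UMIs, both below the count.

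In EHF there is no class of unpatterned epiblast, and Exe ectoderm-like cells were set against both neuroectoderm-like classes together (490 cells). *Utf1* was 6.83-fold higher in Exe ectoderm-like cells (log2 2.77, 2.53 to 3.02) and *Dppa4* 166-fold higher, where the neuroectoderm-like cells held a single UMI (7.38, 4.88 to 12.69). *Sox2* was 1.71-fold lower (−0.78, −1.02 to −0.53), *Pim2* 12.7-fold, *Pou5f1* 32.9-fold and *Slc7a3* 57.2-fold lower. Of 6 members with 100 UMIs, 2 were at least 2-fold higher and 3 lower, against 17.3% of 6144 genes. *Dppa4*, *Slc7a3*, *Pou5f1* and *Pim2*, with 1, 3, 54 and 62 UMIs in their lower group, reached 100 UMIs through the other alone. *Nanog* had 64 UMIs, of which 1 was in Exe ectoderm-like cells. Exe ectoderm-like cells held 29.7% of the *Utf1* UMIs in MS-LS, 17.5% in OB-EB and 77.5% in EHF, and 39.5%, 19.0% and 29.0% of the *Sox2* UMIs. The classes made up 14.8%, 6.16% and 13.7% of the cells.

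Several naive pluripotency genes were higher in Exe ectoderm-like cells, as *Dppa4* was. Most passed the filter through that class alone, so their number is not given. *Zfp42* (Rex1) stood at 127 against 3.29 CPM in MS-LS, 114 against 2.42 in OB-EB and 56.5 against 1.80 in EHF. *Esrrb* (46.9 against 1.31 CPM), *Nr0b1* (70.0 against 1.31) and *Dppa2* (28.0 against 0.219), the gene paired with *Dppa4* in early embryos, were the others with the largest ratios in MS-LS, while *Dppa5a* was lower, at 27.0 against 60.9. Several of these genes are also known in trophoblast.

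More of the formative and primed genes were lower than higher in Exe ectoderm-like cells. In MS-LS 10 of 17 were at least 2-fold lower and 1 higher (median −2.70), in OB-EB 10 of 14 were lower (median −1.88), and in EHF 10 of 14 were lower and 1 higher (median −3.14), against 10.7%, 12.7% and 11.6% lower of all genes. *Fgf5* stood at 8.47 against 134 CPM in MS-LS and 5.34 against 112 in OB-EB, and *Otx2* at 7.81 against 103 and 6.41 against 67.8. *Grhl2*, an epithelial factor, was the gene higher in MS-LS (11.4 against 5.04 CPM) and EHF (10.3 against 4.20). *Pou3f1* was also above its epiblast-like level, at 158 against 116 CPM in MS-LS and 455 against 290 in OB-EB, though within 2-fold, and *Sox3* stood at 29.6 against 22.1 CPM in MS-LS. Among the partners 1 of 15, 1 of 15 and 3 of 16 were higher and 5, 4 and 4 lower, with medians of −0.60, −0.50 and −0.29. *Dnmt3l*, a cofactor of DNA methylation, was the higher one in the earlier libraries (61.5 against 3.07 CPM in MS-LS) and *Lin28b* was lower (3.58 against 33.5).

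**Figure D4:**
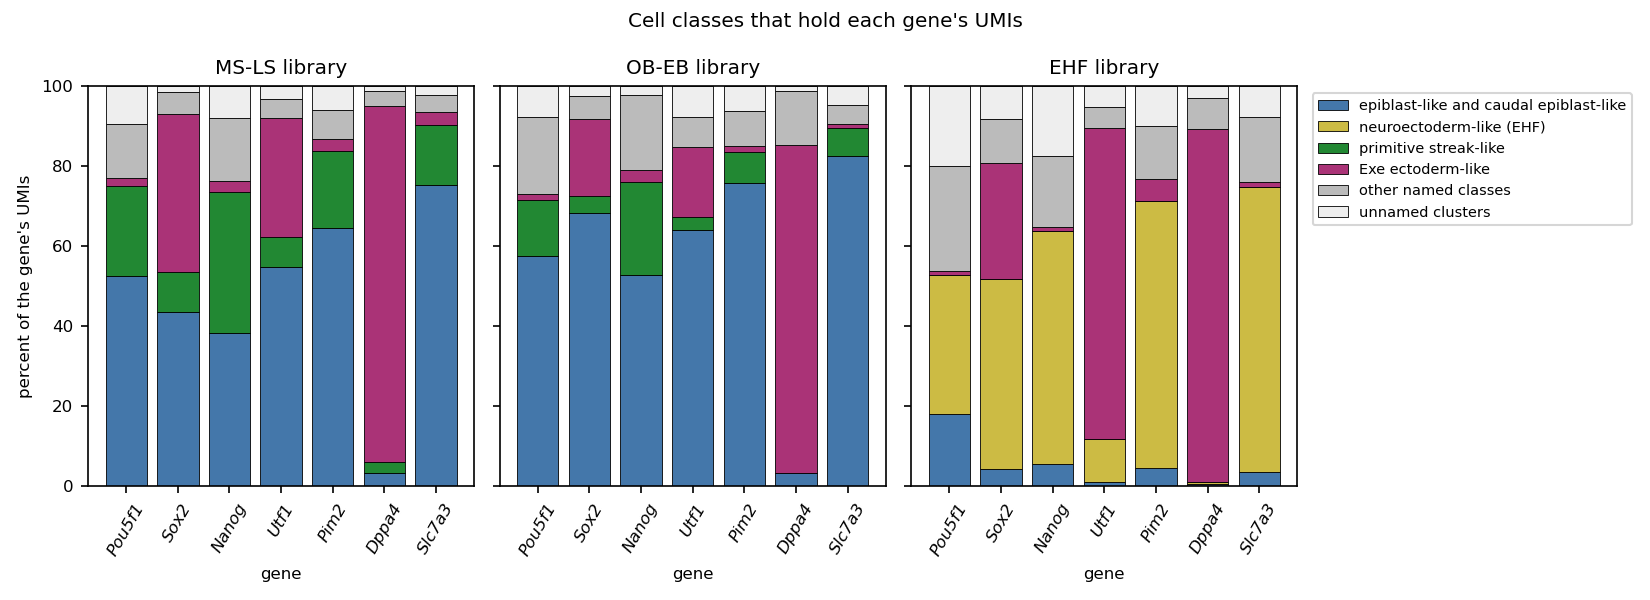
Percent of the UMIs of each gene (bars, summing to 100) that came from each group of classes by library. Exe ectoderm-like cells hold 88.9%, 81.8% and 88.3% of the *Dppa4* UMIs and 77.5% of the *Utf1* UMIs in EHF, where neuroectoderm-like cells hold most of the *Nanog*, *Pim2* and *Slc7a3* UMIs.

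*T* is the gene that marks the streak and that carries the Cre allele in these embryos. In MS-LS and OB-EB, cells with and without a *T* UMI were compared over epiblast-like and streak-like cells together. Cells with one were deeper, with medians of 5980 against 4236 UMIs in MS-LS and 3587 against 2602 in OB-EB. *T* was a marker that named the streak-like class. It had 231 UMIs there and 34 in epiblast-like cells in MS-LS, and 565 and 110 in OB-EB. The split thus partly repeats that between these classes. In MS-LS *Utf1* stood at 82.5 CPM (67.0 to 101) in 168 cells with a *T* UMI and at 317 (303 to 332) in 1182 cells without, a log2 ratio of −1.94 (−2.25 to −1.65). *Slc7a3* was 46.3 against 121 CPM (−1.39, −1.81 to −0.99), *Pim2* 217 against 381 (−0.81, −1.004 to −0.63), *Sox2* 42.1 against 72.9 (−0.79, −1.25 to −0.37) and *Pou5f1* 771 against 946 (−0.30, −0.40 to −0.19). *Nanog* was 46.3 against 34.6 CPM, with an interval that held 0 (0.42, −0.04 to 0.86). Of 6 members with 100 UMIs, 2 were at least 2-fold lower, against 2.05% of 5308 genes. These 2 reached 100 UMIs through the cells without a *T* UMI alone.

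In OB-EB *Utf1* (45.7 against 217 CPM, log2 −2.25, −2.65 to −1.87), *Slc7a3* (22.9 against 82.4, −1.85, −2.44 to −1.31), *Sox2* (47.2 against 141, −1.57, −1.98 to −1.19) and *Pim2* (117 against 310, −1.41, −1.66 to −1.17) were at least 2-fold lower in 315 cells with a *T* UMI than in 1322 cells without, which is 4 of 6 members with 100 UMIs against 2.66% of 4738 genes. Of these 4 genes, all but *Pim2* reached 100 UMIs through the cells without a *T* UMI alone. *Pou5f1* was 482 against 685 CPM (−0.51, −0.64 to −0.38), and *Nanog* was 23.6 against 19.0 CPM (0.31, −0.34 to 0.94). The order of the genes was the same in both libraries, from *Utf1* through *Slc7a3* to *Pou5f1* and *Nanog*, apart from *Sox2* and *Pim2*, which changed places.

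In EHF the comparison ran over caudal epiblast-like and caudal neuroectoderm-like cells together, other classes than in the earlier libraries. Cells with and without a *T* UMI had median depths of 5905 and 5899 UMIs. *T* was a marker that named the caudal epiblast-like class, and had 719 UMIs there and 40 in caudal neuroectoderm-like cells. The split thus largely repeats that between these classes. *Pou5f1* was 800 CPM (752 to 849) in 209 cells with a *T* UMI and 607 (571 to 644) in 302 cells without (0.40, 0.27 to 0.52). *Sox2* was 33.5 against 81.0 CPM (−1.27, −1.79 to −0.78) and *Pim2* 75.4 against 179 (−1.24, −1.58 to −0.92). Of 3 members with 100 UMIs, 2 were at least 2-fold lower, against 2.33% of 3781 genes. These 2 reached 100 UMIs through the cells without a *T* UMI alone. *Slc7a3* (−1.63, −2.48 to −0.85), *Nanog* (−1.95, −3.36 to −0.76) and *Utf1* (−0.91, −1.66 to −0.21) had 89, 44 and 86 UMIs, below the count. *Pou5f1* thus lay on the side of the cells with *T* in EHF and of those without in the earlier libraries, where other classes were compared, also under TMM scaling. *Nanog* had the opposite signs, with intervals that held 0 in the earlier libraries. No other member of the 7 with a defined ratio and 30 UMIs had a different sign between libraries.

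The lists were read in the same way. In OB-EB 3 of 15 formative and primed genes were higher with *T* (*Tdgf1*, *Lef1* and *Fgf8*) and 3 were lower (*Pou3f1*, *Sox3* and *Foxd3*, the last with a log2 interval of −2.83 to 0.26 that held 0), against 3.57% and 3.06% of 8068 genes. Of the naive genes there, *Fgf4* (19.8 against 1.54 CPM) and *Tbx3* (10.7 against 4.62) were higher. In MS-LS 1 of 17 formative and primed genes was lower, *Pou3f1* at 48.8 against 102 CPM, against 3.40% higher and 2.69% lower of 8558 genes. In EHF 3 of 11 were higher and 4 lower, against 3.18% and 1.87% of 7207 genes. *Fgf4* (38.1 against 3.33 CPM) and *Klf5* (32.7 against 3.88), naive genes that passed the filter through the cells with *T*, were higher there. Partners were lower in 0 of 14, 2 of 14 and 2 of 14 cases, and higher in none.

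*Pim2* and *Slc7a3* are X-linked and each library is a pool of female and male embryos. Sex was read per cell, as female where *Xist* was detected without any of 4 Y-linked genes, and as male where these were detected without *Xist*. Female cells made up 51.7% of the called cells in MS-LS (49.3 to 54.1), 63.2% in OB-EB (60.9 to 65.4) and 85.7% in EHF (84.2 to 87.1). Sex was not called in 1954, 2221 and 1312 cells. In MS-LS epiblast-like cells *Pim2* stood at 386 CPM (355 to 418) in 263 female cells and 408 (371 to 447) in 217 male cells, and *Slc7a3* at 142 (123 to 162) and 152 (130 to 177). In OB-EB *Pim2* stood at 354 CPM (319 to 392) and 348 (308 to 393), and *Slc7a3* at 87.4 (70.5 to 107) and 90.3 (70.3 to 114). Both X-linked genes had log2 intervals that held 0 in both libraries, of −0.26 to 0.10 and −0.21 to 0.26 for *Pim2* and of −0.40 to 0.20 and −0.51 to 0.42 for *Slc7a3*.

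In EHF 451 female and only 61 male cells of the neuroectoderm-like and caudal epiblast-like classes could be compared. Each library pooled few embryos and cells could not be traced to them, so sex cannot be told apart from embryo. *Pou5f1* was 606 CPM (579 to 634) in female and 492 (425 to 566) in male cells (0.30, 0.09 to 0.52), and *Pim2* was 178 (164 to 194) and 233 (188 to 286) (−0.39, −0.71 to −0.05). Of 5 members with 100 UMIs, 0 reached 2-fold in MS-LS, OB-EB or EHF, against 0.406% of 2958, 0.175% of 2282 and 1.08% of 4158 genes. In the lists, 0 genes reached 2-fold between the sexes in any library. The stage comparisons were repeated within each sex, a choice made after seeing the data. Among female cells 0 of the 7 genes were counted as 2-fold apart between the epiblast-like classes of MS-LS and OB-EB (247 of 2932 genes in all), and among male cells 0 (201 of 2358), and *Sox2* was higher in OB-EB in both. Between EHF caudal epiblast-like and OB-EB epiblast-like cells 3 were counted in each sex, against 497 of 2414 genes in female and 265 of 1259 in male cells, of which only 18 were caudal epiblast-like. Between the caudal and the rostral EHF class, female cells gave 0, against 41 of 3081 genes, and male cells gave 1, the only one of 433 genes, from 26 and 17 cells.

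**Figure D5:**
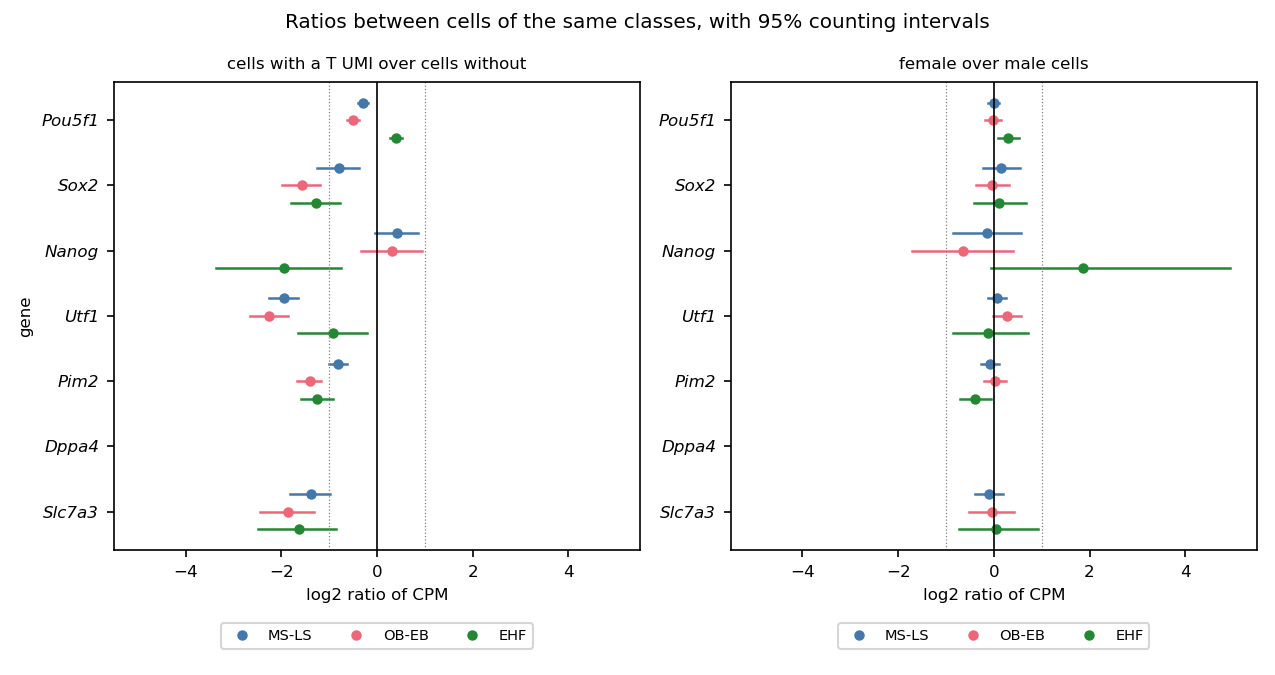
Log2 ratio of CPM (points) with exact 95% intervals (lines) for cells with a *T* UMI over cells without (left) and for female over male cells (right) of the same classes, by library, with dotted lines at 2-fold and genes below 30 UMIs left out. *Utf1*, *Slc7a3*, *Pim2* and *Sox2* lie left of 0 with *T* in all 3 libraries, *Pou5f1* lies at −0.30, −0.51 and 0.40, and the points for sex lie near 0 apart from *Nanog*. *T* was also a marker of the streak-like and caudal epiblast-like classes, so the left panel in part repeats differences between classes.

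The number of the 7 genes seen in a cell was low at a depth of 1000 UMIs. After thinning to 1000 UMIs, MS-LS epiblast-like cells had UMIs of 1.49 of the 7 genes on average and streak-like cells of 1.01. OB-EB epiblast-like and streak-like cells had 1.21 and 0.540. In EHF the mean was 0.849 in caudal neuroectoderm-like, 0.795 in rostral neuroectoderm-like, 0.636 in caudal epiblast-like and 0.375 in Exe ectoderm-like cells. At least 3 of the genes were seen in 15.5% of MS-LS epiblast-like and 9.09% of OB-EB epiblast-like cells, and in 0% of EHF caudal epiblast-like cells. *Sox2* was seen in 1 of 34 MS-LS epiblast-like cells with a *Nanog* UMI (2.94%, 0.0744 to 15.3) and in 8.75% of those without (7.01 to 10.8), a gap within counting error. *Pou5f1* was seen in 64.6% of cells with a *Sox2* UMI (53.3 to 74.9) and 61.4% of those without (58.1 to 64.6). *Utf1* was seen in 25.7% of OB-EB epiblast-like cells with a *Pim2* UMI (21.3 to 30.5) and 18.5% of those without (16.0 to 21.2). For this pair the intervals overlapped in the other classes read. In MS-LS epiblast-like cells the shares were 33.8% (28.6 to 39.3) and 28.1% (24.7 to 31.8). In EHF rostral neuroectoderm-like cells the order was reversed, at 7.69% and 8.66%.

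Across the 34 named classes of the 3 libraries, the pattern of each gene was set against 5849 genes that reached 50 CPM in a class, with Pearson's r of log2(CPM + 10). Classes share libraries and depth, so r is a description. *Pim2* and *Slc7a3* were most like each other (r = 0.92). *Nanog* was most like *Pim2* (0.85) and *Pou5f1* (0.84), and *Pou5f1* most like *Paip2* (0.89), *Gng3* (0.88) and *Ina* (0.87). *Sox2* was most like *Pou3f1* (0.90) and *Pcsk1n* (0.86), and its r with *Utf1* was 0.84. *Utf1* was most like *Pou3f1* (0.87). *Dppa4* was most like *Elf5* (0.95), a trophoblast factor that was also a marker used to name the Exe ectoderm-like class, *Duox2* (0.95) and *AA467197* (0.94). Among the 7 genes themselves *Dppa4* had negative r with *Pou5f1* (−0.29), *Nanog* (−0.14), *Slc7a3* (−0.11) and *Pim2* (−0.07), and 0.47 with *Sox2* and 0.62 with *Utf1*, and *Pou5f1* and *Sox2* had 0.50.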

How the data were processed

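Single-cell libraries were made by the authors on the 10x Chromium 3′ platform from embryos pooled by stage. Per the submitters' processing notes and the study's methods, reads were aligned to GRCm38 with reporter sequences added by Cell Ranger 3.0.2 and cells were filtered in R 3.6.1 with Seurat 3, keeping cells with at least 500 genes, at least 1000 UMIs and a bounded mitochondrial share. The authors deposited the result as tables of whole-number UMI counts per gene and cell, not normalised. Both EHF tables held the same values, apart from 21 gene names, and were counted as 1 library.

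The 7 genes and the gene lists were chosen with earlier results of these data known. Cells were clustered per library with Seurat 5.3.0 in R 4.3.3 (2000 variable genes, 50 principal components, resolution 4.5), with the 7 genes and the lists kept from shaping the clusters. Names were given to clusters where at least 3 markers were detected (in 10% of cells and 1.5-fold above the rest) and the score led the next type by 0.2 on the log2 scale. This naming rule was set after the clusters had been seen, and the names can differ from those of the study. Scrublet (scanpy 1.11.5) marked 9, 0 and 14 cells, under 0.5%, too few to rely on, and doublets were kept.

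UMIs were summed per class and given as CPM with exact Poisson 95% intervals, shares of cells with exact Clopper-Pearson intervals, and log2 ratios with exact conditional binomial intervals (scipy 1.17.1 and pandas 2.3.3 under Python 3.11.15). UMIs limit amplification bias, and the intervals cover counting error only. No test was made, since each stage is 1 library and cells are not replicates. A gene was counted when it differed at least 2-fold with at least 100 UMIs over both groups. Named genes were the 7 genes, *T*, *Eomes*, *Mesp1* and *Xist* for context, up to 4 genes of each list in each direction past 2-fold with at least 30 UMIs, and the 3 genes most like each of the 7. *Eomes* and *Mesp1* were left out of the text where no result turned on them. The values of 1 list gene are not reported here. The scripts were tested on simulated data. Alternatives were other resolutions, other variable genes, deeper cells, doublets left out, other totals and scaling, no count filter, another fold, single clusters, the study's cluster names, other thinning and another pseudocount. A stricter marker rule, cells of 1 sex and the loss of the smallest Exe ectoderm-like cluster were added after seeing the data.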

Additional observations from a re-analysis of the deposited data

How the results depend on the processing

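No called ratio of the 7 genes changed direction under any alternative run. Of 187 recomputed counts of genes at least 2-fold apart, 166 stayed within 1.5 times the reported count and 21 did not. For OB-EB over MS-LS epiblast-like cells the count of 0 became 1 with the 7 genes and lists among the variable genes, with no UMI filter, in the largest clusters and under the stricter marker rule, and 3 at a fold of 1.5. For caudal over rostral neuroectoderm-like cells of EHF the count of 0 became 2 at resolutions 2 and 8 and with the 7 genes and lists among the variable genes, 3 under the stricter marker rule, 5 at a fold of 1.5 and 1 in male cells. At a fold of 1.5 the MS-LS streak count went from 3 to 5, and the MS-LS count for *T* from 2 to 4. The MS-LS Exe ectoderm count of 5 became 3 in the largest clusters, and the OB-EB count of 3 became 5 with no UMI filter. The OB-EB count for *T* went from 4 to 2 at resolution 2. The EHF count for *T* went from 2 to 0 at resolution 2, to 4 with no UMI filter, and to 1 in the largest clusters and under the stricter marker rule. The EHF count for sex went from 0 to 1 with no UMI filter. Fewer or more genes pass by construction where the fold or the filter changed, and elsewhere the cause was not tested. Of 1009 ratios of single genes, 917 stayed within their counting interval, and of the 7 highest correlations 6 moved by less than 0.1 with a pseudocount of 1.

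TMM scaling moved the median of all genes by more than 0.1 on the log2 scale in 6 comparisons: by 0.35 for EHF caudal epiblast-like over OB-EB epiblast-like cells, by 0.11 for the OB-EB streak and Exe ectoderm, by 0.12 for the MS-LS nascent mesoderm, and by 0.15 and 0.13 for *T* in MS-LS and OB-EB. *Pou5f1* in the first of these, which was not called, turned from 0.15 to −0.20. Of 140 shares of cells recomputed without thinning or at 2000 UMIs, 105 moved beyond their interval, so shares are bound to the depth at which they were read.

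At resolution 2 no OB-EB cluster was named streak-like, so that comparison had no value. The study's cluster names were used only within MS-LS, since the OB-EB list at hand was incomplete. No paired analysis was possible because each stage is 1 library, so that there are no pairs of replicates, and the replicate numbers only name samples in accession order. *Nanog* and *Dppa4* are the genes that depth limits most.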

Other observations

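At a clustering resolution of 8, an MS-LS cluster of 29 cells held markers of primordial germ cells, the founders of the germ line, and 26 of these cells came from 1 unnamed cluster of the main clustering. Its cells had a median of 2287 UMIs. *Pou5f1* stood at 785 CPM (589.6 to 1024, 54 UMIs) and was seen in 75.9% of the cells (56.5 to 89.7). *Sox2*, *Nanog* and *Pim2* had 2 UMIs each, and *Utf1*, *Dppa4* and *Slc7a3* had 0, with an upper interval bound of 53.6 CPM. *Ifitm3*, a membrane protein of early germ cells and of mesoderm, had 54 UMIs, *Sprr2a3* 13, *Tfap2c* 5, *Prdm1* 4, *Dppa3* 3, *Nanos3* 2, and *Dnd1* and *Kit* 1 each, and *T* had 14. The cluster was noticed after its values were seen, and its levels rest on few UMIs.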
